A study of Homo sapiens with 2 samples.

Results

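The aryl hydrocarbon receptor, its repressor, the CYP1 cytochromes and 3 further genes grouped with them were examined in MDA-MB-231, a long-established human breast cancer line that lacks hormone receptors and has a mesenchymal character. The genes were AHR, AHRR, CYP1A1, CYP1A2, CYP1B1, TIPARP, ALDH3A1 and ALDH1A3, and each was read on the probe set annotated to it alone, the one with the higher mean signal where there were several. This gave 7 of the 8 genes, out of 22465 genes that had an unshared probe set. AHRR shared its probe set with the neighbouring gene PDCD6, so that no level of AHRR alone was analysed here. The set was chosen by earlier measured differences between these same arrays, that of CYP1A1 above all, so its values are a description.

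Gene expression was measured on 2 arrays. The control array held RNA of cells stably transfected with the pLKO.1 vector, and the other held RNA of cells stably transfected with pLKO.1-shSREBP, which carries a short hairpin RNA against SREBP1, a transcription factor of fatty acid synthesis encoded by SREBF1. Both derivatives came from the same line, grown in high-glucose medium with serum, and the labels name no ligand of the receptor. The title of the control sample contains shNC, which may stand for a negative-control hairpin. Whether its pLKO.1 vector carried such a hairpin is thus unclear here. The labels used here do not give the hairpin sequence or say whether a derivative was 1 clone or a pool. Since each group held 1 array, replicate spread could not be measured and no p-value was computed. SREBF1, the target of the hairpin, read 5.13 log2 units in the control and 5.29 on the other array, a difference of 0.15, where genes of its level had an SD of 0.18. The knockdown was thus not visible in the target's own RNA, and every direction below refers to the label of the array.

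The aryl hydrocarbon receptor is a ligand-activated transcription factor of the bHLH-PAS family, held in the cytosol by HSP90 and its partners. After it binds planar aromatic compounds or tryptophan derivatives it enters the nucleus, pairs with ARNT and binds xenobiotic response elements, whose core is GCGTG. CYP1A1, CYP1A2 and CYP1B1 oxidise such ligands and also oestradiol. AHRR, which competes for ARNT and for the same elements, and TIPARP, an ADP-ribosyltransferase that modifies the receptor, act as negative feedback. In breast cancer lines CYP1A1 transcription is widely used as the readout of receptor activity.

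The sequence before the start of the genes is shown because the receptor acts through short promoter elements. Whether these sequences bear on the differences between the arrays was not tested. Each line gives the 250 bases before the RefSeq start (GRCh38.p14), with GCGTG or its reverse complement CACGC in capitals. The windows are chr15:74725529-74725778 on the minus strand for CYP1A1, chr15:74748595-74748844 on the plus strand for CYP1A2, chr3:156674340-156674589 on the plus strand for the first TIPARP start and chr7:17298402-17298651 on the plus strand for AHR.
CYP1A1: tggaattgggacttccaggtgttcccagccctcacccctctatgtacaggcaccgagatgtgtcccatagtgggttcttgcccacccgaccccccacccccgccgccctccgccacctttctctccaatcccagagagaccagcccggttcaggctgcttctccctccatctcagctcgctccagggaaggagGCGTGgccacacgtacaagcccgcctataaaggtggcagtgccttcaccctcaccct
CYP1A2: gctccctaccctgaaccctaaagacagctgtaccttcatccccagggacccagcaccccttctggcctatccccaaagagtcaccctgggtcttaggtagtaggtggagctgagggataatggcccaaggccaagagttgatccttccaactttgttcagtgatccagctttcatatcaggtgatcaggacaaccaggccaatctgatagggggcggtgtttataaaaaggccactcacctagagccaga
TIPARP: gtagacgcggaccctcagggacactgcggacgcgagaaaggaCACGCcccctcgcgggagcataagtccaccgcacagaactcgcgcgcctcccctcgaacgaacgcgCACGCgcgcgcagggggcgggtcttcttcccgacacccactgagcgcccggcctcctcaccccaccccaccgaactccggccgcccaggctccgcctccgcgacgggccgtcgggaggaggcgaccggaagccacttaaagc
AHR: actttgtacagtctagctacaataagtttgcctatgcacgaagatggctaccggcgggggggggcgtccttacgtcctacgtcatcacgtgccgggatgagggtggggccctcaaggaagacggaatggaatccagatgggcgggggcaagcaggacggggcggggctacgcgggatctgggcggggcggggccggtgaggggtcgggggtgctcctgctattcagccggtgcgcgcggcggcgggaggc

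The CYP1A1 window held 1 match to GCGTG, which began 57 bases before the start on the strand of the gene. The window of the first TIPARP start held 2 matches, both on the other strand and beginning 208 and 142 bases before the start. The windows of CYP1A2 and AHR held none. The ALDH1A3 window held 2 matches and the first AHRR window 1, and the AHRR match was also a match to the longer TNGCGTG, which no other first window of these genes contained. The later TIPARP windows held no match to GCGTG, and the second AHRR window held 2. Among 35116 promoter windows of the same length, 32.2% held GCGTG on either strand and 4.52% held TNGCGTG, so that a single core match is common. At least 2 matches to GCGTG occurred in 10.2% of these windows. The related core ACGTG, bound by hypoxia factors that also pair with ARNT, occurred once in CYP1A1 and in AHR as 2 overlapping matches on opposite strands, against 18.5% of all windows with at least 1. GCGTG and ACGTG differ in 1 letter and no match to one is a match to the other. The elements through which CYP1A1 is known to be induced lie mainly further upstream, outside these windows. RefSeq windows were matched by symbol for 6 of the 8 genes, and those of CYP1B1 and ALDH3A1 were not analysed here.

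**Figure D1:**
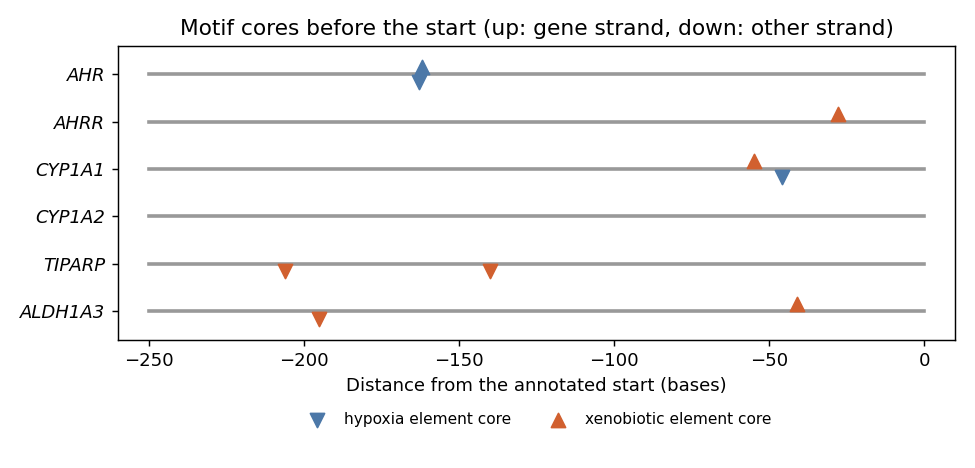
Matches to the core of the xenobiotic response element (orange) and of the hypoxia response element (blue) in the 250 bases before the first annotated start of 6 genes. The x axis is the distance from the start in bases, upward triangles lie on the strand of the gene and downward ones on the other strand, and the CYP1A2 line holds no match.

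CYP1A1 was the member with the largest difference. Its RMA signal (transcript cluster TC15001647.hg.1) was 4.65 log2 units in the control and 5.48 on the array labelled knockdown. The difference of 0.82 log2 units, or 1.77-fold, made it the 9th highest of 15702 genes above the expression floor, a level of 3.21 log2 units set by olfactory receptor genes, which this line should not express. Among the 500 genes closest to it in mean signal none had a higher difference, and the SD of their differences was 0.21 log2 units. CYP1A1 was the 1 member beyond 1.5-fold, where 0.382% of all genes above the floor were higher by this factor, 0.751% were lower by it and 1.13% differed in either direction. No member reached 2-fold, which 0.0191% of all genes did upward and 0.115% downward. Since CYP1A1 led to the choice of the set, nothing is read from that count.

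The other CYP1 genes did not follow CYP1A1 in size. CYP1A2, the liver form of the family, read 3.63 log2 units in the control and 3.75 on the other array, a difference of 0.13 or 1.09-fold. Both values lay above the floor, by 0.42 and 0.55 log2 units, and the difference was smaller than the SD of genes of its level, 0.17. CYP1B1, an enzyme of oestradiol and polycyclic hydrocarbon oxidation that many breast lines express without added ligand, read 7.92 in the control and 7.94 on the other array. Its second probe set read 7.85 and 7.76, so that the 2 probe sets differed in sign, and the difference of 0.027 log2 units became -0.029 with both averaged and -0.028 once a curve of the difference on the signal was removed. CYP1B1 was thus within 0.1 log2 units of its control value on either probe set, while CYP1A1 differed by 0.82.

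CYP1A1 and CYP1A2 are adjacent protein-coding genes on chromosome 15, transcribed away from each other. Of the 5 genes on each side of CYP1A1 that RefSeq types as protein-coding, 7 were above the floor on a probe set of their own, and their differences ran from -0.13 log2 units for CLK3, a splicing-factor kinase, to 0.20 for CSK, a kinase that restrains SRC. None of the 7 differed by 1.5-fold, against 1.13% of all genes above the floor, so that count is near the share of the array. The difference of CYP1A1 was larger than that of every measured neighbour. Since CYP1A1 was chosen for its difference, nothing is read from that comparison.

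**Figure D2:**
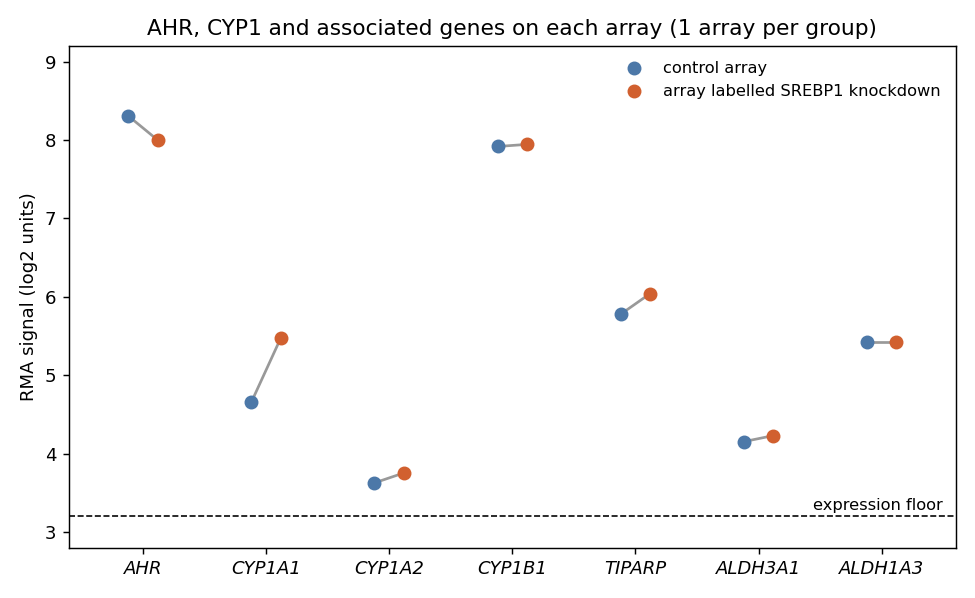
RMA signal in log2 units of 7 genes on the control array (blue) and on the array labelled SREBP1 knockdown (orange), 1 array each, with the expression floor of 3.21 as a dashed line. CYP1A1 is higher by 0.82 log2 units, AHR differs by -0.31, and ALDH1A3 has the same value on both arrays. Heights of different genes are not comparable amounts, since each probe set has its own response.

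The receptor itself was lower on the array where CYP1A1 was higher. AHR (TC07000112.hg.1) read 8.308 log2 units in the control and 7.999 on the other array, a difference of -0.31 log2 units or 1.24-fold lower. Among 500 genes of its level, 17 had a lower difference, and the SD was 0.21 log2 units. AHR and CYP1A1 thus differed in opposite directions between these arrays. The feedback gene TIPARP read 5.78 in the control and 6.04 on the other array, 0.26 log2 units or 1.20-fold higher, with 35 of 500 genes of its level higher still and an SD of 0.19. The probe set shared by AHRR and PDCD6 read 5.28 and 5.17, a difference of -0.11 that cannot be assigned to either gene. Of the feedback pair, TIPARP was thus higher by less than 1.5-fold, and AHRR was read only jointly with PDCD6.

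The 2 aldehyde dehydrogenases showed small or no differences. ALDH3A1, which oxidises aromatic and medium-chain aldehydes and is a textbook gene of the receptor's battery, read 4.15 log2 units in the control and 4.23 on the other array. That difference of 0.077 log2 units was smaller than the SD of genes of its level, 0.16. ALDH1A3, which makes retinoic acid from retinal, read 5.42 on both arrays, with exactly equal deposited values. Equal values occurred in 6.63% of genes above the floor, so the tie is a property of the summarised values in many genes.

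Across the 7 genes 5 were higher, 1 was lower and 1 was equal, the median difference being 0.077 log2 units. Over all 15702 genes above the floor 52.2% were higher and 41.2% lower, the median being 0.012 with an SD of 0.19. Without CYP1A1 the other 6 genes ran from -0.31 to 0.26 with a median of 0.052, and 4 of the 6 lay within 1 SD of genes of their own level. The set thus held 1 gene far from the bulk of the array and 2, AHR and TIPARP, between 1 and 2 SD from 0.

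**Figure D3:**
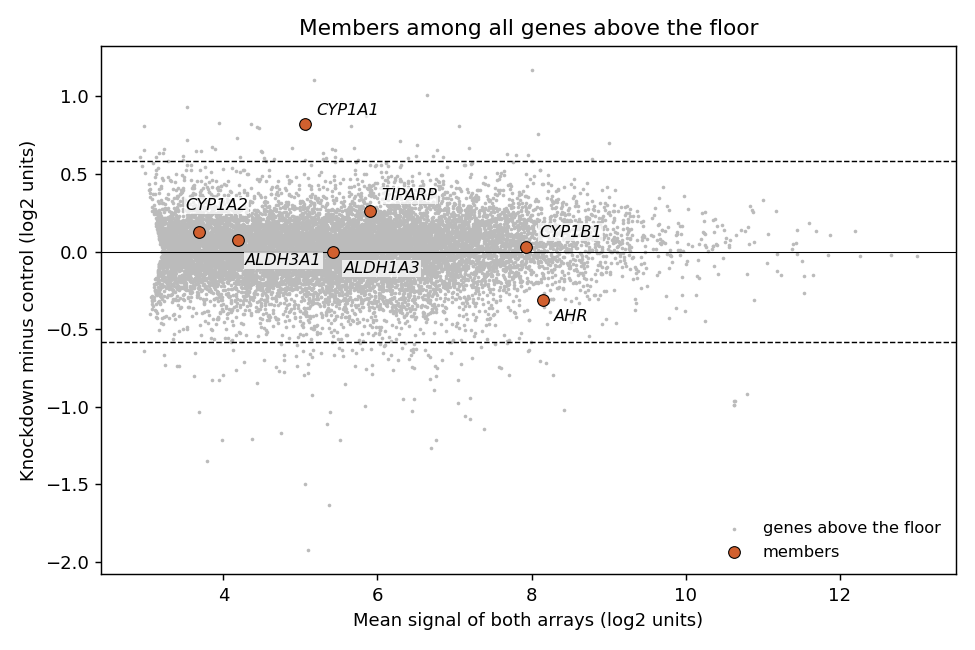
Difference between the array labelled knockdown and the control array (y axis, log2 units) against the mean signal of both arrays (x axis, log2 units) for 15702 genes above the floor (grey) and the 7 members (orange). Dashed lines mark 1.5-fold, and CYP1A1 is the 1 member outside them.

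Antisense transcripts of the members were read on separate probe sets. TIPARP-AS1 read 3.45 in the control and 3.82 on the other array on its brighter probe set, a difference of 0.37 log2 units, while its second probe set, at 2.44 and 2.37, was under the floor on both arrays. CYP1B1-AS1 read 3.64 on both arrays. Neither reached 1.5-fold.

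The genes with the values most like those of CYP1A1, by the distance between their 2 array values and its own, were ANGPTL4, an inhibitor of lipoprotein lipase, FERMT1, an integrin activator, and ENG, a TGF-beta co-receptor. ANGPTL4 read 4.68 and 5.47, at a distance of 0.023 log2 units. FERMT1 was at a distance of 0.21 and ENG at 0.23, with differences of 0.56 and 0.50 log2 units. With 2 arrays this likeness rests on 2 values per gene.

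The partners that hold and assist the receptor went both ways. Of 18 listed genes of the receptor complex and its coregulators, 15 were above the floor, 7 higher and 8 lower. Among all genes above the floor 52.2% were higher and 41.2% lower. None of the 15 differed by 1.5-fold, against 1.13% of all genes, so that count is near the share of the array. The median stood at -0.020 log2 units, or -0.061 with that curve removed. ARNT, the DNA-binding partner, was lowest, with 6.58 log2 units in the control and 6.33 on the other array, a difference of -0.26 against an SD of 0.21 at its level. ARNT2, its paralogue, had a difference of -0.18. HSP90AB1, the chaperone subunit that keeps the receptor ready for ligand, had the highest value at 0.29. AHR, ARNT and ARNT2 were thus all lower and HSP90AB1 higher on the array labelled knockdown, each by less than 1.5-fold.

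In the bHLH-PAS family, to which AHR and ARNT belong, 10 of 15 genes above the floor were lower, 4 higher and 1 equal, with a median of -0.083 log2 units. The median was -0.16 with the floor raised by 1 log2 unit and -0.040 with no floor. HIF1A, the hypoxia factor that competes for ARNT, was lowest, from 9.01 to 8.47 log2 units, a difference of -0.54 or 1.45-fold lower against an SD of 0.19 at its level. SIM2, a developmental member, was highest at 0.26. Of all genes above the floor 41.2% were lower and 52.2% higher. No member of the list reached 1.5-fold, against 1.13% of all genes, so that count is near the share of the array.

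Other genes reported as receptor targets went both ways. Of 30 listed, 17 were above the floor, 10 higher and 7 lower, where 52.2% and 41.2% of all genes were. The 17 had a median of 0.059 log2 units, or 0.20 over the 15 genes above a floor raised by 1 log2 unit. At least 1.5-fold higher were 3 of the 17, or 17.6%, against 0.382% of all genes, and none was 1.5-fold lower, against 0.751%. This list was drawn up with the values of SLC7A5 and IL24 known, so its count is not independent evidence of a direction. IL24, a cytokine of the IL-10 family, read 6.17 in the control and 6.86 on the other array, 0.69 log2 units higher. FLG, which encodes the epidermal protein filaggrin, read 4.56 and 5.23, or 0.67 higher. SLC7A5, the large neutral amino acid transporter that carries tryptophan and kynurenine, read 8.49 and 9.09, or 0.59 higher. NQO1, the quinone reductase shared by the batteries of this receptor and of NRF2, read 9.10 and 9.35, or 0.25 higher, while NFE2L2, which encodes NRF2, differed by -0.045. ABCG2, an efflux transporter, was lowest at -0.23. GSTA1, PTGS2 and IDO1 were among 8 listed genes under the floor on both arrays. Nothing is read from IL24, FLG and SLC7A5 being higher on the same array as CYP1A1. The median of the list was close to that of the array, 0.059 against 0.012 log2 units. With the raised floor it was 0.20 against 0.014.

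Tryptophan is a source of receptor ligands, through kynurenine and through indole-3-pyruvate. IDO1 and TDO2, which open the kynurenine path, were under the floor on both arrays, with equal values of 2.17 and 2.13 log2 units. Of 10 genes of this list above the floor 7 were higher and 3 lower, where 52.2% and 41.2% of all genes were. Their median was 0.072 log2 units, or 0.035 with no floor. KYNU, kynureninase, was lowest, from 4.72 to 4.41, a difference of -0.32. SLC7A5, already counted above, was the 1 of 10 beyond 1.5-fold, against 0.382% of all genes higher by this factor. Its partner chain SLC3A2, named after its value was seen, read 7.47 and 8.05, just under 1.5-fold. IL4I1, which makes indole-3-pyruvate from tryptophan and was also named after its value was seen, read 4.68 and 4.79. No enzyme of the list was beyond 1.5-fold in either direction, against 1.13% of all genes.

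The rest of the cytochrome P450 superfamily was measured for comparison with the CYP1 genes. Of 49 other P450 genes 27 were above the floor, 21 higher, 3 lower and 3 equal, where 52.2% of all genes were higher and 41.2% lower. Their median was 0.079 log2 units, 0.059 with that curve removed and 0.030 over all 49 with no floor. CYP24A1, the vitamin D hydroxylase, was the 1 of 27 beyond 1.5-fold, against 0.382% of all genes at least 1.5-fold higher. It read 3.16 on the control array, under the floor, and 3.78 on the other, so that it was at least 1.49-fold higher with its control value set to the floor, and no longer beyond 1.5-fold. CYP2S1, a P450 outside the CYP1 family that is also reported to respond to dioxin, was the lowest at -0.16. CYP51A1, the sterol demethylase of cholesterol synthesis, was named after its value was seen and was 0.29 higher. No other P450 gene above the floor had a difference as large as that of CYP1A1. Because CYP1A1 led to the choice of the set, nothing is read from its place among them.

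Genes of electron and haem supply to these enzymes, listed with the haem oxygenases HMOX1 and HMOX2, which break haem down, went both ways. Of 7 genes above the floor 5 were higher and 2 lower, where 52.2% and 41.2% of all genes were. Their median was 0.050 log2 units, or 0.013 with the curve removed. CYB5A, cytochrome b5, was lowest, from 6.98 to 6.52, a difference of -0.46. HMOX1, the haem oxygenase and a stress-inducible gene, was highest at 0.41. POR, the P450 reductase, shared its probe set with a microRNA gene, and that probe set read 5.52 and 5.62.

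Genes of conjugation and efflux, which act on the products of CYP1 enzymes, were lower in 15 of 19 cases above the floor and higher in 2, with a median of -0.10 log2 units, where 41.2% of all genes were lower. No member was beyond 1.5-fold, against 1.13% of all genes in either direction. UGT8, a glycosyltransferase whose known product is galactosylceramide, was lowest at -0.53, and GSTP1, the main glutathione transferase of many tumour lines, was highest at 0.26. Of 10 listed xenobiotic nuclear receptors 5 were above the floor, namely PPARA, PPARD, PPARG, VDR and NR1H3. NR1I3 was under the floor on both arrays, and 4 were not analysed here, NR1I2 among them. Of the 5 genes 4 were lower and 1 equal, where 41.2% and 6.63% of all genes were. Their median was -0.13 log2 units, or -0.083 with no floor. PPARG, a fatty acid receptor, was lowest at -0.20, and PPARA was equal on both arrays.

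In the families of the remaining members no gene above the floor differed by 1.5-fold. Over the whole array 1.13% of genes did, so that count is near the share of the array. Of all genes above the floor 52.2% were higher and 41.2% lower. Of 11 other aldehyde dehydrogenases above the floor 6 were lower and 4 higher, the median being -0.092 log2 units, which was 0 over all 15 with no floor. ALDH6A1, an enzyme of valine breakdown, was lowest at -0.40 and ALDH16A1 highest at 0.20. ALDH1A1 and ALDH1A2, the other retinal dehydrogenases of the ALDH1A group, were under the floor on both arrays, and in the retinoid list 9 genes were higher and 6 lower, the median being 0.033 log2 units, or 0.0071 with no floor. DHRS3, a retinal reductase, was lowest there at -0.33 and RDH10, a retinol dehydrogenase, highest at 0.16. In the PARP family, to which TIPARP belongs, 9 of 15 genes were lower and 4 higher, with a median of -0.068 log2 units. PARP4 was lowest at -0.30, and ZC3HAV1, an antiviral zinc-finger member, was highest at 0.33, above the 0.26 of TIPARP.

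**Figure D4:**
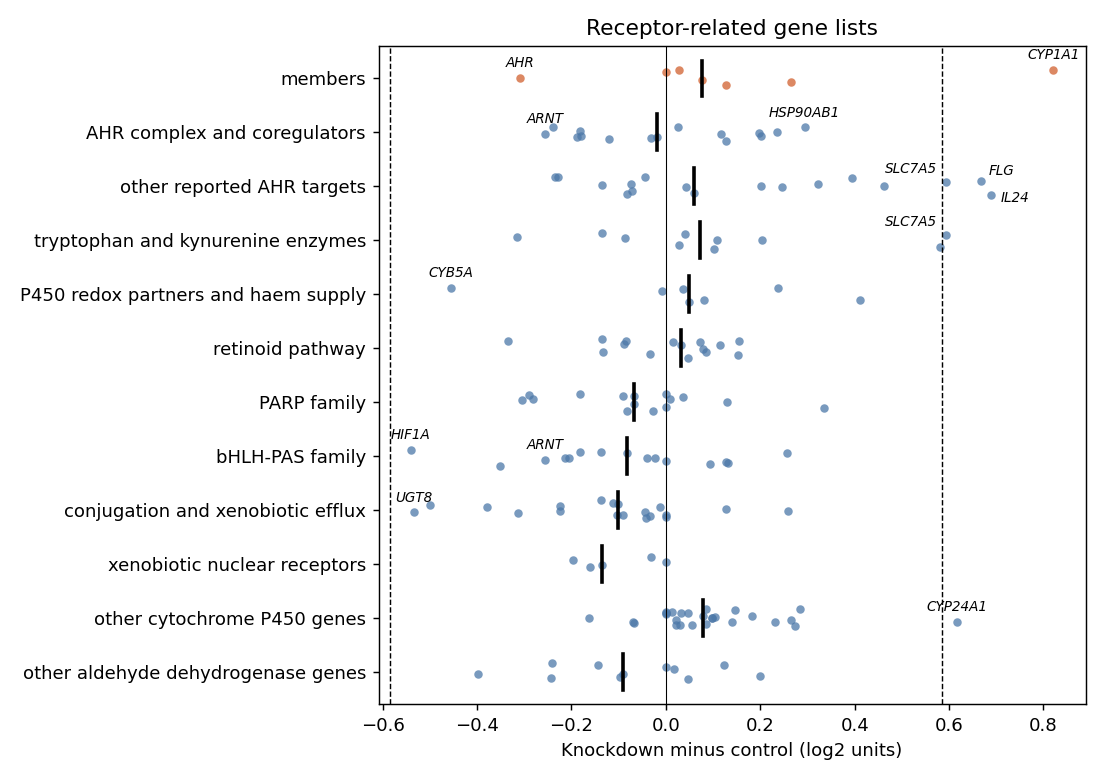
Difference between the array labelled knockdown and the control array (x axis, log2 units) for the 7 members (orange) and for genes above the floor in 11 related lists (blue), 1 point per gene, with the median of each list as a black bar and 1.5-fold as dashed lines. CYP1A1, IL24, FLG, SLC7A5 and CYP24A1 lie beyond 1.5-fold on the higher side, and no gene of these lists lies beyond it on the lower side.

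The identity of the cells was checked against cell type markers. All 6 mesenchymal markers, VIM and AXL among them, were above the floor. Of 6 measured luminal markers 2, ESR1 and PGR, were under it on both arrays, while GATA3, EPCAM and FOXA1 were above it on both and CDH1 in the control. Of 9 measured hepatocyte markers 7, with ALB among them, were under the floor, as were 4 of 6 keratinocyte markers and 3 of 6 leukocyte markers, PTPRC among them. Above it on both arrays were the hepatocyte markers APOA1 and SERPINA1 and the keratinocyte markers KRT5 and KRT14. So were the leukocyte markers CD3E, CD14 and CD68. CD68 read 8.64 in the control and 8.85 on the other array, close to the summed level of its list. The log2 summed levels on the control and the other array were 11.6 and 11.8 for the mesenchymal list, 6.65 and 6.61 for the luminal, 6.71 and 6.83 for the hepatocyte, 5.66 and 5.67 for the keratinocyte and 8.79 and 8.97 for the leukocyte list. Each sum adds probe sets of unlike response and includes genes under the floor, and the lists differ in size. The sums can therefore be compared between the arrays but not between lists. The part of these markers in the difference of CYP1A1 was not tested.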

How the data were processed

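RNA of 2 stable derivatives of MDA-MB-231 was read on 1 array each. Per the submitters' processing notes, the authors used Affymetrix Expression Console and RMA, and the deposited values are log2 signals. Tool versions and the build of the probe sets were not given in the sources used here. RMA normalizes between arrays and summarises probes, so values are relative and fold changes tend to be compressed. Depth does not apply to arrays, and their number limits the precision.

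Of 70523 probe sets, 23781 named 1 gene, 1543 several and 45199 none here. Only the first were used, with the highest mean standing for a gene. As floor served the 95th percentile of signal, averaged over both arrays, among 364 olfactory receptor genes, and 15702 genes passed it on at least 1 array. Differences are the array labelled knockdown minus control, counted at 1.5-fold. The SD and ranks at a gene's level come from the 500 genes nearest in mean signal. These SDs measure the spread between genes and not between replicates.

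The members and the 17 gene lists (273 memberships: 175 above the floor, 73 below, 10 on probe sets of several genes, 15 not analysed here) were chosen with earlier results of these data known. Some genes are in several lists. Named genes were the members, a fixed panel, each list's highest and lowest gene and those beyond 1.5-fold, and the 3 protein-coding genes nearest to CYP1A1. Promoter windows are from RefSeq (GRCh38.p14), and motifs were searched on both strands. Alternatives changed centring, a loess curve (fraction 0.3), probe set handling, the floor, the threshold and the gene types. The code was tested on simulated data. The software was matplotlib 3.10.9, statsmodels 0.14.6, pandas 2.3.3 and numpy 2.4.6 under Python 3.11.15.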

Additional observations from a re-analysis of the deposited data

How the results depend on the processing

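The members and the list medians were recomputed, but not single genes of the lists, except that CYP24A1 was also read with its control value at the floor. CYP1A1 stayed between 0.81 and 0.82 log2 units in 9 alternatives, and AHR between -0.37 and -0.31, TIPARP between 0.25 and 0.26 and ALDH3A1 between 0.064 and 0.077. CYP1A2 stayed between 0.11 and 0.13 in 8, since it was under the floor raised by 1 log2 unit. Each of these genes had 1 probe set of its own and lay above the floor on both arrays. Only centring on the median and removing the curve could therefore change their values, and the other settings could not. The median of the members stayed between 0.052 and 0.077. At 2-fold in place of 1.5-fold, 0 members passed. CYP1B1 turned sign with its probe sets averaged and with the curve removed, and ALDH1A3 moved from 0 to -0.012 when differences were centred on their median. A shift of a gene was judged against the SD of genes of its level, since there are no replicates. No paired analysis was possible because each group had 1 array, and for the same reason no array could be left out. Signals near the floor, such as those of CYP1A2, limit what can be read from their differences.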
